A study of Capra hircus with 9 samples.

Results

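The common gamma chain (γc) cytokine system was followed through 9 of its genes in goat submandibular glands at 3 ages: the receptor chains IL2RG, IL2RA, IL2RB, IL7R, IL4R and IL21R, the kinase JAK3, and the ligands IL7 and IL15. They were chosen by name, and the transcripts of each gene were summed. All 9 were found among the 21665 genes to which the table sums. The glands came from female Lubo goats at 1 month (group A), 12 months (group B) and 24 months of age (group C), 3 goats and 3 RNA-seq libraries per age, kept under the same conditions, fasted, and anaesthetised with xylazine hydrochloride before slaughter. The study asked how gene expression of this salivary gland, for which it proposes a possible part in immune defence, changes with age. Libraries of group A held 1.15e+07 to 1.76e+07 expected counts, those of group B 1.82e+07 to 2.11e+07 and those of group C 2.20e+07 to 2.49e+07. At these depths 3 counts, the floor used for detection, corresponded to 0.145 to 0.190 CPM, that is, counts scaled to a common library size.

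IL2RG encodes the γc chain itself, a subunit shared by the receptors for IL-2, IL-4, IL-7, IL-9, IL-15 and IL-21. Each receptor pairs it with private chains, and JAK3, which binds the γc chain, signals together with JAK1 to STAT proteins. The family is known for the development, survival and division of lymphocytes, and loss of IL2RG, JAK3 or IL7R causes severe combined immunodeficiency. In salivary tissue these receptors are mainly a property of resident lymphocytes, with IL4R also found on epithelial and myeloid cells.

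Before the members are described, the libraries were compared with markers of the labelled tissue. The library labelled 1-month-old replicate 2 was far lower than the others in most genes of salivary acinar and duct epithelium, the keratins KRT8 and KRT18 and the gene BPIFA1 excepted. Its summed CPM over the 10 genes of that list was 490.4, against 25017 and 18200 in replicates 1 and 3 of group A, and 82470 to 163288 in the 6 older libraries. MUC19, the mucin gene that was the most abundant of the list in the other 8 libraries, had 50.9 CPM in replicate 2 against 23095 and 16946 in replicates 1 and 3. The water channel gene AQP5 had 0.493 CPM there, and 217 and 128 in the same pair of libraries. KRT8, a keratin of simple epithelia, was the list's most abundant gene in replicate 2, at 307 CPM against 235 and 158 in replicates 1 and 3, and KRT18 had 68.8 CPM against 91.1 and 51.8. BPIFA1 was at or below 1.65 CPM in all 9 libraries.

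The same library was highest in genes of developing T cells and of thymic epithelium, the thymocyte gene DNTT excepted. DNTT had 162 CPM in replicate 1 and 157 CPM in replicate 2. The 7 thymocyte genes summed to 2247, 5518 and 972 CPM in replicates 1, 2 and 3 of group A, and to 18.3 to 30.5 CPM in groups B and C. RAG1, which rearranges antigen receptor genes, led this list in each library of group A, with 1513, 4234 and 650 CPM, and had at most 0.814 CPM in each library of groups B and C. The 6 thymic epithelium genes summed to 267, 1111 and 102 CPM in group A and to at most 2.58 CPM in each library of groups B and C, where 2 to 4 of the 6 genes were at 0. FOXN1, the transcription factor that defines this epithelium, had 15.7, 80.1 and 5.54 CPM in group A. All 3 libraries of group A therefore carried these genes, replicate 2 the most, and the results are given with and without it. In bulk tissue, fewer cells of a type and less RNA per cell cannot be told apart.

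**Figure D1:**
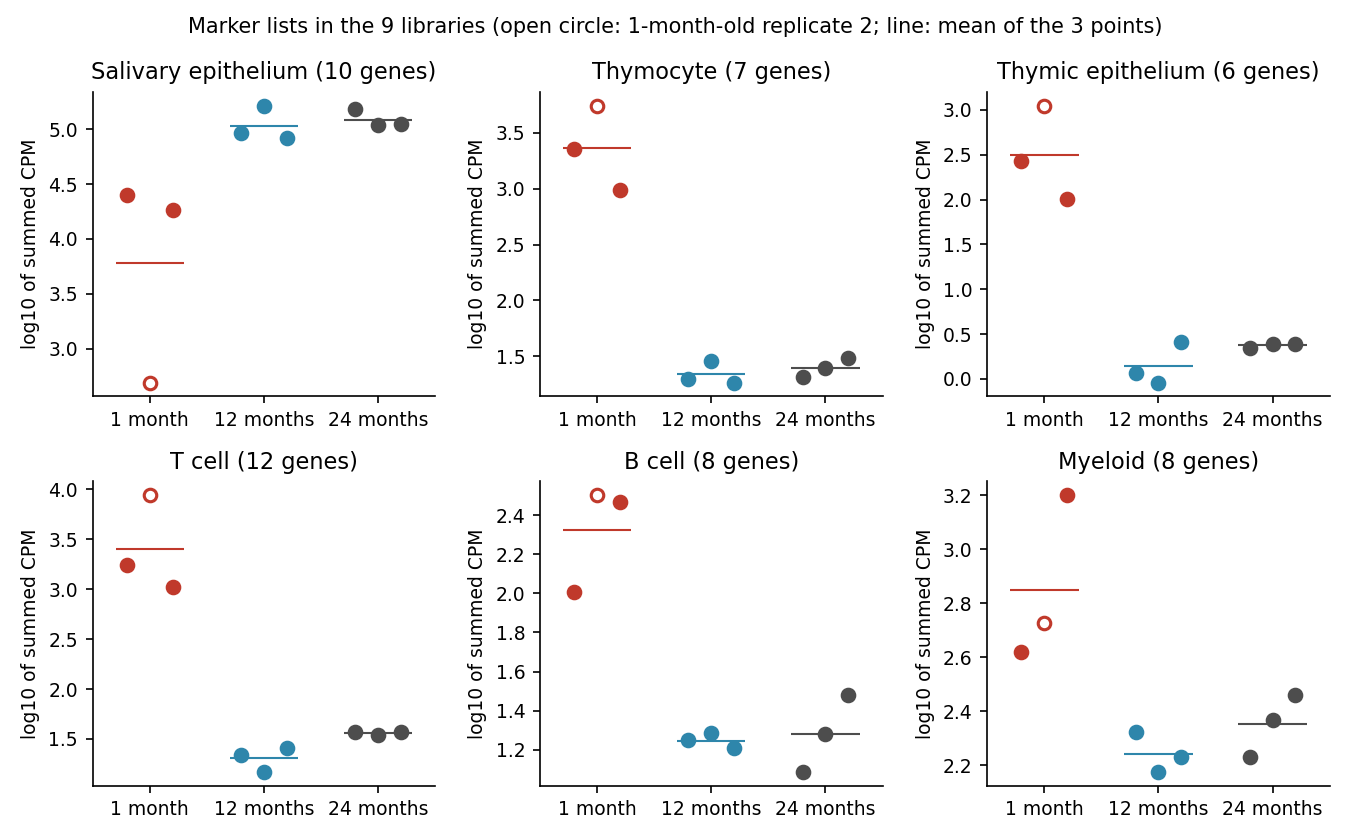
Summed CPM of 6 marker lists on a log10 axis in the 9 libraries, by age, with the open circle for 1-month-old replicate 2 and lines for the mean of the 3 points. That library is lowest for salivary epithelium (490.4 CPM) and highest for thymocyte (5518 CPM) and thymic epithelium genes (1111 CPM).

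IL2RG was high at 1 month and low at both later ages. Its levels in group A were 94.8, 620 and 160 CPM, in group B 16.3, 11.3 and 13.6 CPM, and in group C 7.85, 17.4 and 25.0 CPM. Every library of group A lay above every library of the older groups, and replicate 2 was far above the rest. The mean was 21.2-fold higher in group A than in group B and 17.4-fold higher than in group C. With edgeR's quasi-likelihood test the log2 fold change (older minus younger) was -4.39 (SE 0.81, adjusted p = 0.0163) from 1 to 12 months and -4.03 (SE 0.86, adjusted p = 0.0181) from 1 to 24 months. Without replicate 2 of group A it was -3.21 (edgeR adjusted p = 0.000785) and -2.82 (adjusted p = 0.00425).

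IL7R, the private chain of the IL-7 receptor, which developing and naive T cells need for survival, differed from IL2RG in that replicate 2 did not stand above the others. Its levels were 64.4, 49.2 and 67.5 CPM in group A, 3.46, 4.56 and 4.02 CPM in group B and 2.62, 1.24 and 2.84 CPM in group C. The 3 ages formed separate ranges, with the lowest in group C, and the library labelled replicate 2 was the lowest of group A. The log2 fold change was -3.84 (SE 0.28, edgeR adjusted p = 0.00615) from 1 to 12 months and -4.64 (SE 0.47, adjusted p = 0.00267) from 1 to 24 months. Without replicate 2 it was -4.03 and -4.79.

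IL21R, the private chain for IL-21, a cytokine of helper T cells that acts on B cells, was at 14.5, 120 and 34.3 CPM in group A, 1.40, 0.770 and 0.874 CPM in group B and 0.524, 0.961 and 2.48 CPM in group C. Group A did not overlap with either older group, and replicate 2 was again the highest library. The log2 fold change was -5.79 (SE 0.93, edgeR adjusted p = 0.0123) and -5.31 (SE 0.99, adjusted p = 0.0126), and -4.59 and -4.09 without replicate 2.

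JAK3, the kinase bound to the γc chain, followed IL2RG. It stood at 46.3, 173 and 66.8 CPM in group A, at 13.8, 5.11 and 5.33 CPM in group B and at 6.63, 7.41 and 14.5 CPM in group C. No older library reached the lowest of group A, while replicate 1 of group B and replicate 3 of group C were the highest of their groups. The log2 fold change was -3.53 (SE 0.69, edgeR adjusted p = 0.0195) and -3.24 (SE 0.63, adjusted p = 0.0144), and -2.81 and -2.47 without replicate 2.

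IL4R, which binds IL-4 and, with IL13RA1, IL-13, had the smallest fitted change from group A among the receptor chains measured through known transcripts. It had 28.8, 94.7 and 52.9 CPM in group A, 21.7, 15.8 and 16.1 CPM in group B and 17.9, 20.7 and 38.0 CPM in group C. Group B lay below group A, but replicate 3 of group C was above replicate 1 of group A, so that these groups overlapped. The log2 fold change of -1.68 (SE 0.47, edgeR adjusted p = 0.0509) and that of -1.10 (SE 0.53, adjusted p = 0.183) did not pass the test. Without replicate 2 they were -1.19 and -0.57.

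IL2RA, the chain that gives the IL-2 receptor high affinity and marks activated and regulatory T cells, had few counts at every age. It stood at 2.76, 6.40 and 6.69 CPM in group A, 1.59, 0.230 and 1.01 CPM in group B and 0.880, 0.542 and 0.802 CPM in group C. The ranges of group A and the older groups did not overlap. From 1 to 24 months the log2 fold change of -2.72 (SE 0.62, edgeR adjusted p = 0.0222) was called, whereas that of -2.43 (SE 0.76, adjusted p = 0.0659) from 1 to 12 months was not. Without replicate 2 the values were -2.56 and -2.31.

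IL2RB, the signalling chain shared by the IL-2 and IL-15 receptors, could not be followed reliably. The table holds it only as 3 newly assembled transcripts, and the RefSeq annotation used for names lists it as a non-coding gene. It was at 0 in 1 library each of groups A and B and in 2 of group C, and reached 4.28, 6.47 and 3.61 CPM in the highest library of groups A, B and C. The ages overlapped, and the log2 fold changes of 1.06 (SE 1.74) and -0.37 (SE 1.91) were smaller than their errors. The transcript that carried the counts differed between libraries.

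Both ligands had few counts. IL7, which stromal and epithelial cells supply to T-cell precursors, had 3.22, 0.880 and 2.72 CPM in group A, 0.536, 0 and 0.219 CPM in group B and 0.232, 0 and 0 CPM in group C. In group C only replicate 1 was above 3 counts, with 4.28. Replicate 2 was the lowest of group A and still above each older library. The log2 fold change was -3.04 (SE 1.07, edgeR adjusted p = 0.0881) from 1 to 12 months, not called, and -4.78 (SE 1.24, adjusted p = 0.0341) from 1 to 24 months. Without replicate 2 both were called, at -3.49 (edgeR adjusted p = 0.0365) and -5.17 (adjusted p = 0.0142). With at most 9.68 counts in any older library, these calls rest on the level in group A.

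IL15, which myeloid and epithelial cells present to memory T cells and natural killer cells, had 4.77, 1.62 and 4.55 CPM in group A, 1.15, 1.76 and 1.84 CPM in group B and 2.56, 1.13 and 0.568 CPM in group C. Replicate 2 of group A lay within the range of the older groups, while replicates 1 and 3 lay above all of them. The log2 fold changes of -1.13 (SE 0.53, edgeR adjusted p = 0.165) and -1.25 (SE 0.73, adjusted p = 0.261) did not pass, nor did those without replicate 2 (-1.55 and -1.62, whose sizes stay under the fold threshold).

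**Figure D2:**
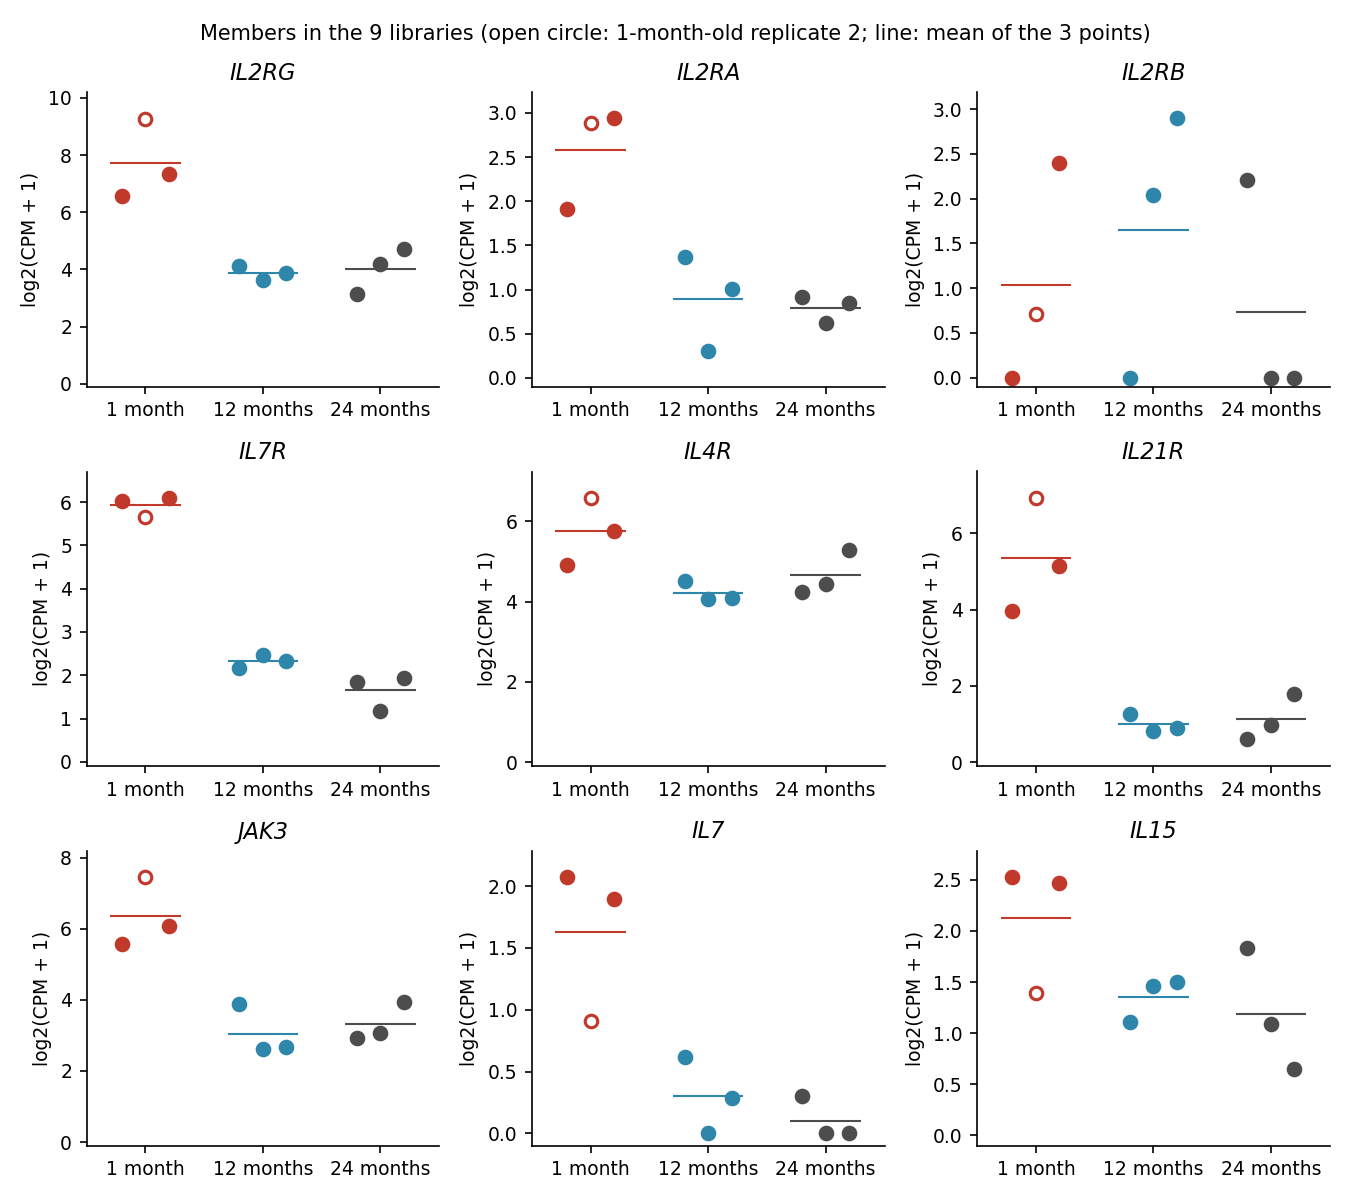
Level of each member in the 9 libraries as log2(CPM + 1), by age, with the open circle for 1-month-old replicate 2 and lines for the mean of the 3 points. IL2RG, IL4R, IL21R and JAK3 are highest in that library, whereas IL7R, IL7 and IL15 are lowest there among the 3 of group A.

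Calls needed an adjusted p under 0.05 together with a log2 fold change beyond 2 in size. All 9 members passed the filter on low counts in both comparisons with group A, which a member can also pass through its level in group A alone. From 1 to 12 months 4 of the 9 members were called lower (IL2RG, IL7R, IL21R and JAK3), where 9.52% of all 14884 genes tested were, and from 1 to 24 months 6 were (with IL2RA and IL7), against 9.16% of 14954. IL7, with 4.28, 0 and 0 counts in group C, passed the filter through group A alone, so that its call adds no support. The members called beside it at 24 months were IL2RG, IL2RA, IL7R, IL21R and JAK3. Of these, IL2RA and IL21R had 11.21 and 9.64 counts in their lowest library of group C. Both also needed libraries of group A to pass the filter, so that the limit holds for them in part. No member was called higher. The median log2 fold change of the members was -3.04 (the value of IL7) and -3.24, and that of all genes -0.02 and -0.01. In 7 members all libraries of group B, and in 6 all libraries of group C, lay below all of group A, compared with 26.9% and 23.5% of all genes. Both comparisons share the libraries of group A.

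The exact test of edgeR and the Wald test of DESeq2 each called 6 members from 1 to 12 months, with IL2RA and IL7 added, and the fit of all 9 libraries 5, with IL2RA. Calls of lower genes over all genes tested also rose, to 11.4%, 10.2% and 10.6%. Leaving out replicate 2 of group A gave 5 members called (background 10.4%) and 6 (background 9.73%), IL7 among them at both ages. IL7 had only 9.68, 0 and 4.09 counts in group B. Its calls at 12 months by these alternatives therefore rest on its level in group A and, like those at 24 months, add no support. The median of the members was then -2.81 and -2.56. Leaving out replicate 1, 2 or 3 of group B left 0, 1 and 1 members called, and the calls over all genes went down with them, to 0, 68 and 109 genes lower. Leaving out replicate 1, 2 or 3 of group C left 3, 1 and 1, with 872, 456 and 266 genes lower. IL7R kept its call in 5 of these 6 cases and had an adjusted p of 0.0508 in the other, without replicate 1 of group B. By edgeR, IL4R was called from 1 to 12 months without replicate 1 of group A (adjusted p = 0.0249). From 1 to 24 months IL7 lost its call without replicate 1 (adjusted p = 0.0787) or 3 (0.0762) of group A, and IL2RA without replicate 3 (0.0701). IL7 also lost it without replicate 2 (0.116) or 3 (0.120) of group C, and IL2RA without any 1 of that group. The 3 members called without replicate 1 of group C include IL7, but both libraries left in that group had 0 counts of it, so that this call rests on its level in group A alone. Against a floor of 3 counts per library it was then at least 15.1-fold lower than the mean of group A.

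**Figure D3:**
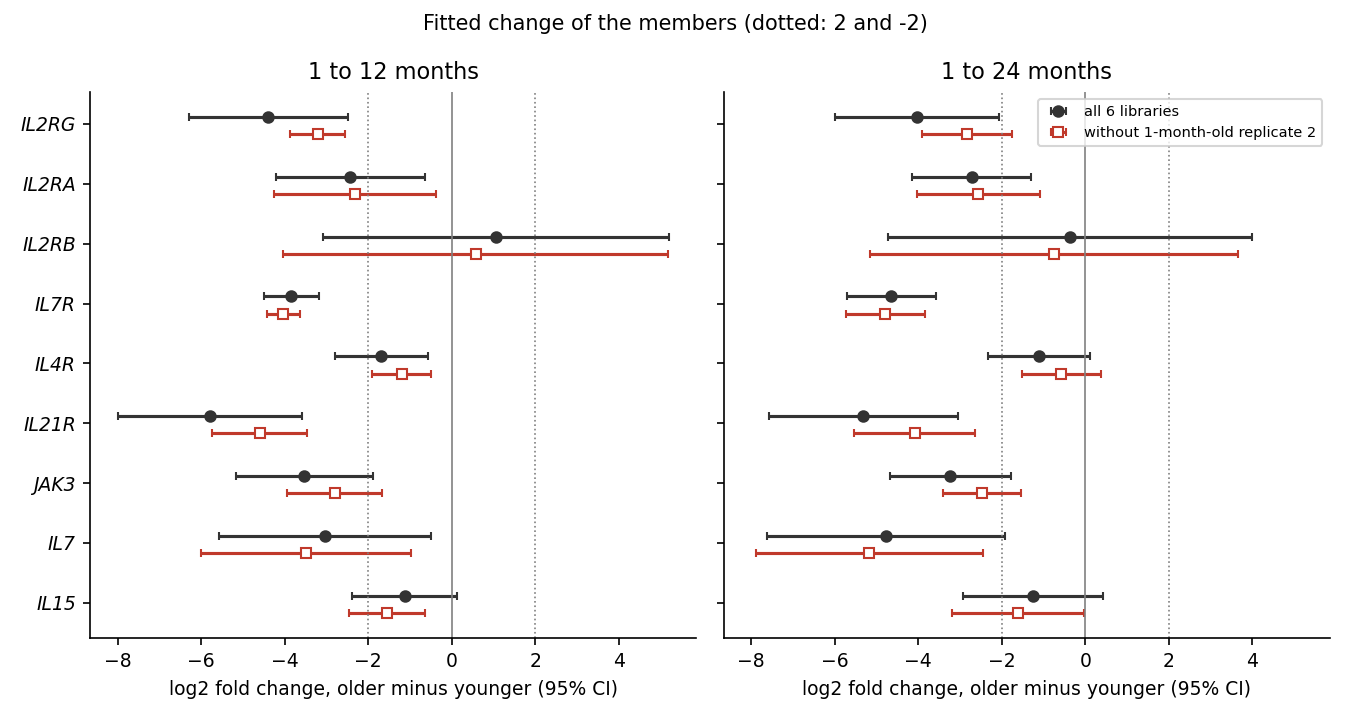
Fitted log2 fold change of each member with its 95% confidence interval from 1 to 12 and from 1 to 24 months, with all 6 libraries (filled) and without 1-month-old replicate 2 (open squares). With all 6 libraries IL7R has the narrowest intervals, and it barely moves when that library is left out, and IL2RB spans 0 widely.

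Between 12 and 24 months no member differed by the test. Of the 8 members tested, 0 were called, nor was any of the 14289 genes tested (0%), by edgeR's quasi-likelihood test. At an unadjusted p under 0.05 there were 0 members and 1560 genes. DESeq2's Wald test called 0 members, 6 genes lower and 7 higher, and edgeR's exact test 0 members and 8 genes each way. Without replicate 1 of group C 131 genes were called lower and 40 higher, with 0 members among them. With all 6 libraries and age alone in the fit IL7R came nearest, with a log2 fold change of -0.81 (95% interval -1.78 to 0.16, edgeR adjusted p = 0.432). It was the only member whose 3 libraries of group C all lay below those of group B, as 7.56% of genes did. Without replicate 1 of group C, IL2RG and IL4R (edgeR adjusted p = 0.0640 each) came nearer than IL7R (0.144). So did IL2RB (0.0516), which had 0 counts in both libraries left in group C. IL7 was not tested here because of its low counts.

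The member counts were also set against PTPRC, the gene of the leukocyte antigen CD45, library by library. PTPRC itself was 237, 525 and 303 CPM in group A, 14.4, 13.1 and 13.0 CPM in group B and 16.8, 16.3 and 15.5 CPM in group C. Gene lengths were not used, so the ratios can be read across libraries but not between genes. IL2RG had 40.0, 118 and 53.0 counts per 100 PTPRC counts at 1 month, 113, 85.8 and 104 at 12 months, and 46.7, 107 and 161 at 24 months. IL7R had 27.2, 9.38 and 22.3 counts at 1 month, 24.1, 34.7 and 30.9 at 12 months, and 15.6, 7.64 and 18.3 at 24 months. For both, and for IL21R, each older group overlapped with group A, unlike in CPM. The ratio of IL7R was lower in each library of group C than in each of group B. Without replicate 2 of group A, left out of the ratios after seeing the data, the ratio of IL2RG was higher in each library of group B than in group A, and that of IL7R lower in each library of group C.

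IL4R rose against PTPRC, as most genes did. It had 12.2, 18.1 and 17.5 counts per 100 PTPRC counts at 1 month, 150, 120 and 123 at 12 months, and 107, 127 and 246 at 24 months. Each older library lay above each library of group A, as also for JAK3 (19.6, 32.9 and 22.1 against at least 38.9) and IL15 (at most 2.01 against at least 3.67). Beside these 3, IL2RA was higher at 24 months, and with all libraries no member was lower at either age. Of all genes tested 91.9% and 89.5% were higher against PTPRC in this way at 12 and 24 months, and 1.63% and 1.79% lower. The result moved with the reference gene: with summed CD3 genes 6 and 5 members were higher at 12 and 24 months (95.1% and 92.4% of all genes), and with 6 pan-leukocyte genes only IL4R was (84.3% and 79.3%), while IL2RG and IL21R were lower at 12 months and IL7R and IL21R at 24 months (4.05% and 3.89%). That sum rests on LCP1, which was not called and made up 17.3% to 28.7% of it in group A but 64.5% to 76.3% later. Without LCP1, a choice made after seeing the data, no member was lower with all libraries, 4 were higher at 12 months, IL2RG among them, and 3 at 24 months (91.2% and 87.3% of all genes). Without replicate 2 of group A, 4 and 4 members were higher against PTPRC, and 0 and 1 (IL7R) lower (92.6% and 90.2% of all genes higher, 1.79% and 2.03% lower). Relative to IL2RG itself, IL4R had 15.3 to 33.0 counts per 100 in group A and 118 to 228 in the older groups. IL21R had 15.3 to 21.4 and 5.54 to 9.92. IL15 was higher in each library of group B than in group A, and overlapped with group A at 24 months. Of all genes tested 88.7% and 81.8% were higher against IL2RG at 12 and 24 months, so that IL4R rose as most genes did. The genes lower against IL2RG, IL21R among them, made up 2.24% and 2.1%.

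**Figure D4:**
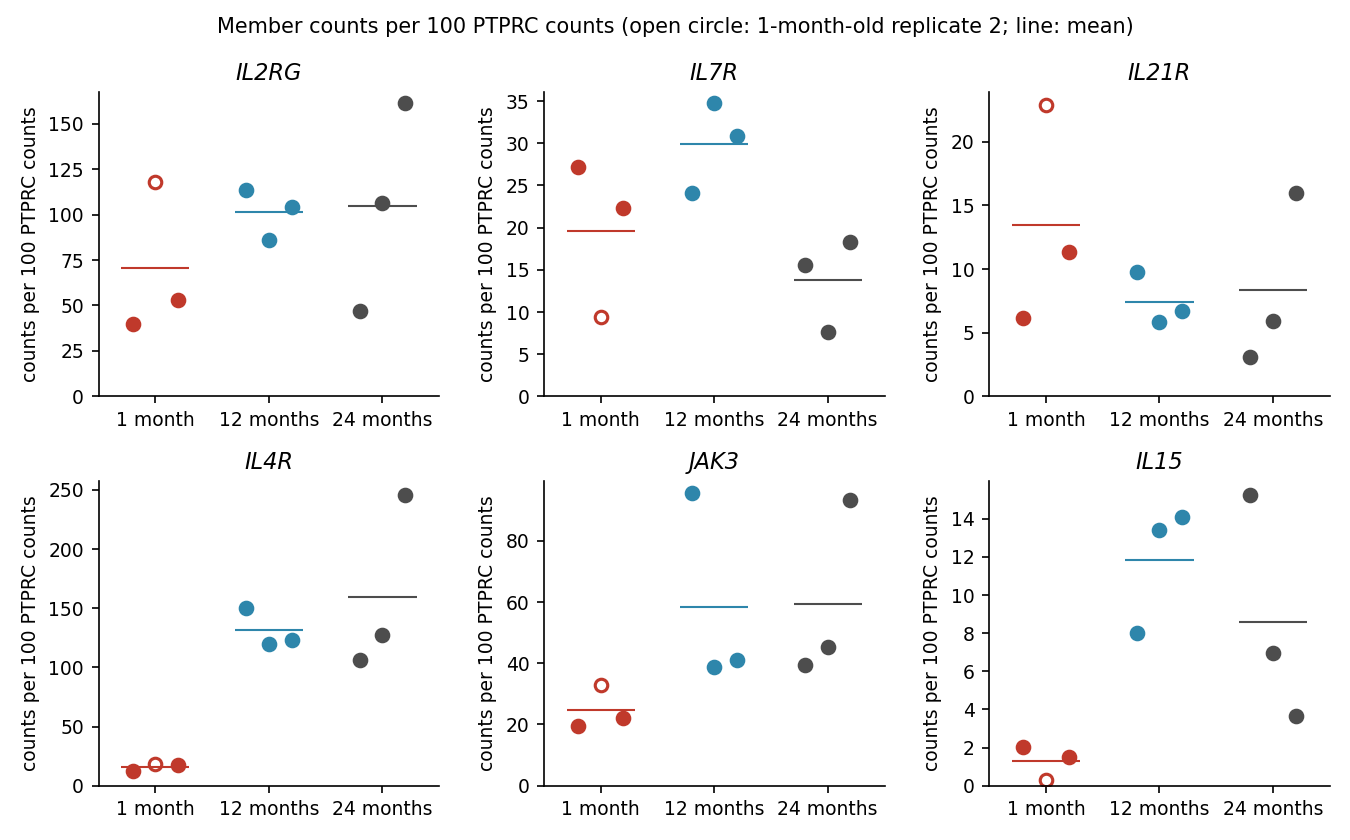
Expected counts of 6 members per 100 PTPRC counts in the 9 libraries, by age, with the open circle for 1-month-old replicate 2 and lines for means. IL4R, JAK3 and IL15 are higher in each older library than in group A, whereas for IL2RG, IL7R and IL21R both older groups overlap with group A.

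Leukocyte markers moved with the members. Over all genes tested, 9.52% were called lower at 12 months and 9.16% at 24 months. Of the 6 pan-leukocyte genes 5 were called lower at both ages, with medians of -4.54 and -4.13, and the list summed to 1508, 5379 and 2032 CPM in group A and to 304 to 394 CPM later. LAPTM5 led it in group A and LCP1 in the older groups. All 12 T-cell genes were called lower at both ages (medians -7.24 and -6.24), and their sum was 1737, 8778 and 1065 CPM in group A and 14.8 to 37.3 CPM later. Of the thymocyte genes 6 of 7, and of the thymic epithelium genes all 5 tested, were called lower at each age. CCL25 and CD1E apart, the genes called in these lists had few or no later counts. They, and CD1E at 12 months, passed the filter on low counts through group A alone, so that these calls add no support. In the other lists, genes with few later counts, such as CD28 and MS4A1, carry the same limit. Of the 8 B-cell genes 5 were called lower at each age, with sums of 101, 318 and 294 CPM in group A and 12.2 to 30.0 later. Of the 8 myeloid genes 3 and 5 were called lower, with sums of 418, 535 and 1587 CPM in group A and 150 to 289 later. Without replicate 2 of group A the counts called lower were 5 and 5 for the pan-leukocyte list, 12 and 12 for T cells, 6 and 6 for thymocytes, 5 and 5 for thymic epithelium, 6 and 5 for B cells and 6 and 5 for myeloid cells. Over all genes tested the share called lower was then 10.4% and 9.73%. Most thymocyte and thymic epithelium genes again passed the filter through group A alone. The medians were then -3.59 and -3.13 for the pan-leukocyte list, and -6.06 and -5.13 for T cells. The part of these cells in the members' change was not tested.

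Among 8 genes of natural killer and cytotoxic cells 4 were called lower at 12 months, and 1 of the 7 tested at 24 months (6 and 2 without replicate 2 of group A). Among 4 regulatory T-cell genes 2 were called lower at each age, with and without that library. FOXP3, the factor that defines regulatory T cells, had 3.25, 13.8 and 3.80 CPM in group A and 1.11 to 1.80 later, and was not called. Of 5 lymphoid stroma genes 4 were tested and 1 was called lower at each age (CCL19), and without replicate 2 all 5 were tested and 2 called at each age. Over all genes tested 9.52% and 9.16% were called lower at 12 and 24 months, and 10.4% and 9.73% without replicate 2. A single call in a list this short cannot be told apart from that share. With all libraries none of the 5 plasma cell genes was called, whereas without replicate 2 JCHAIN and TNFRSF17 were called higher at 12 months. JCHAIN, which joins secreted antibody units, had 346, 3.66 and 844 CPM in group A and 746 to 2785 later. Of the 10 salivary genes 1 and 2 were called higher (LPO at both ages and KRT18 at 24 months). Of all genes tested 321 of 14884 and 636 of 14954 were called higher. Without replicate 2 the counts of salivary genes were 2 and 5, with MUC19 added at both ages and AQP5 and BHLHA15 at 24 months. Of all genes tested 325 of 15235 and 673 of 15369 were then called higher.

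The remaining γc ligands IL2, IL4, IL9 and IL21, and IL13 and TSLP, whose receptors share IL4R and IL7R, were at or below 0.333 CPM in every library, and none passed the filter on low counts. Of the other receptor chains, CRLF2, the TSLP receptor chain that pairs with IL7R, was called lower at both ages (3.92, 7.85 and 4.63 CPM in group A, at most 0.577 later), and IL9R, the private chain for IL-9, at 24 months. In those comparisons both passed the filter on low counts only through group A, so that these calls add no support. IL15RA, which presents IL-15, had 1.44, 2.04 and 6.24 CPM in group A and 0.361 to 1.07 later and was not called. IL13RA1 had 49.5, 7.64 and 65.7 CPM in group A and 51.2 to 104 later, also without a call.

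Downstream, most genes did not pass. Of 9 further kinases and STATs only STAT4, which transmits IL-12 signals, was called, lower at both ages (6.62, 5.42 and 10.5 CPM in group A, 0.361 to 0.930 later). JAK1, the partner kinase, had 482, 930 and 462 CPM in group A and 284 to 355 later (log2 fold changes -0.91 and -0.85, not called). JAK2 and TYK2 were not called either. STAT5B, a main transducer of IL-2 and IL-7, had 62.4 to 166 CPM in group A and 30.2 to 36.9 later (edgeR adjusted p = 0.0516 and 0.075), and STAT5A, found under a locus name, 35.2 to 90.4 and 18.7 to 41.1. The list's median was -0.91 and -0.71.

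Of 8 inhibitors of the pathway 2 were called lower at 12 months (SOCS1 and SOCS3) and 1 at 24 months (SOCS3). SOCS3, a feedback inhibitor of JAK kinases, had 37.2, 145 and 37.0 CPM in group A and 1.62 to 7.43 later. CISH, a feedback gene of STAT5, had 37.4, 101 and 23.5 CPM in group A and 19.0 to 51.4 later, not called. Among 9 genes of the PI3K and MAPK branch PIK3CD and PIK3R5, leukocyte subunits of PI3K, were called lower at both ages. PIK3CD had 71.2, 331 and 92.2 CPM in group A and 2.80 to 10.9 later, whereas PIK3R1, AKT1 and 5 more were not called.

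Of 6 tested genes that γc cytokines are known to raise in lymphocytes, PIM2 and CCND3 were called lower at 12 months and CCND3 at 24 months. CCND3, a cyclin of dividing thymocytes, had 190, 1055 and 129 CPM in group A and 20.7 to 54.9 later, and without replicate 2 it was called at 12 months only. BCL2, a survival gene, had 10.6, 13.5 and 12.4 CPM in group A and 6.30 to 15.0 later and was not called. MCL1 and PIM1 did not pass either. Over these 6 lists 8 of 36 tested genes (22.2%) were lower at 12 months and 7 (19.4%) at 24 months, where 9.52% and 9.16% of all genes tested were, and 0 were higher. CRLF2 at both ages and IL9R at 24 months are counted here. They passed the filter on low counts only through group A, so that their calls add no support. STAT4, with 6.7 and 7 counts in its lowest library of groups B and C, also needed group A to pass. Without replicate 2 of group A 8 and 5 were lower (10.4% and 9.73% of all genes), with IL15RA added and PIM2 lost at 12 months, and IL9R and CCND3 lost at 24 months. The calls of IL15RA and CRLF2 counted there also rest on a filter passed only through group A.

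Other cytokine receptor families were set beside the members. All 4 receptors of the CSF2RB group, which serve IL-3, IL-5 and GM-CSF in myeloid cells, were called lower at 12 months and 3 at 24 months, with medians of -2.96 and -3.06 near those of the members. IL5RA, called at 12 months, had 0.74, 0 and 1.63 counts in group B. It passed the filter on low counts there through group A alone, so that its call adds no support. CSF2RB had 69.4, 104 and 185 CPM in group A and 12.8 to 30.5 later, and was highest in replicate 3 of group A, unlike IL2RG. Of 7 receptors that use IL6ST none was called with all libraries (medians 0.10 and -0.39). Of 9 tested class II receptors for interferons and the IL-10 group 4 were called lower at each age. Without replicate 2 of group A the counts called lower at 12 and 24 months were 4 and 4 for the CSF2RB group, 0 and 1 (IL6R) for the IL6ST group and 3 and 3 for the class II receptors. The calls of IL3RA and IL5RA at both ages then again rest on a filter passed only through group A.

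**Figure D5:**
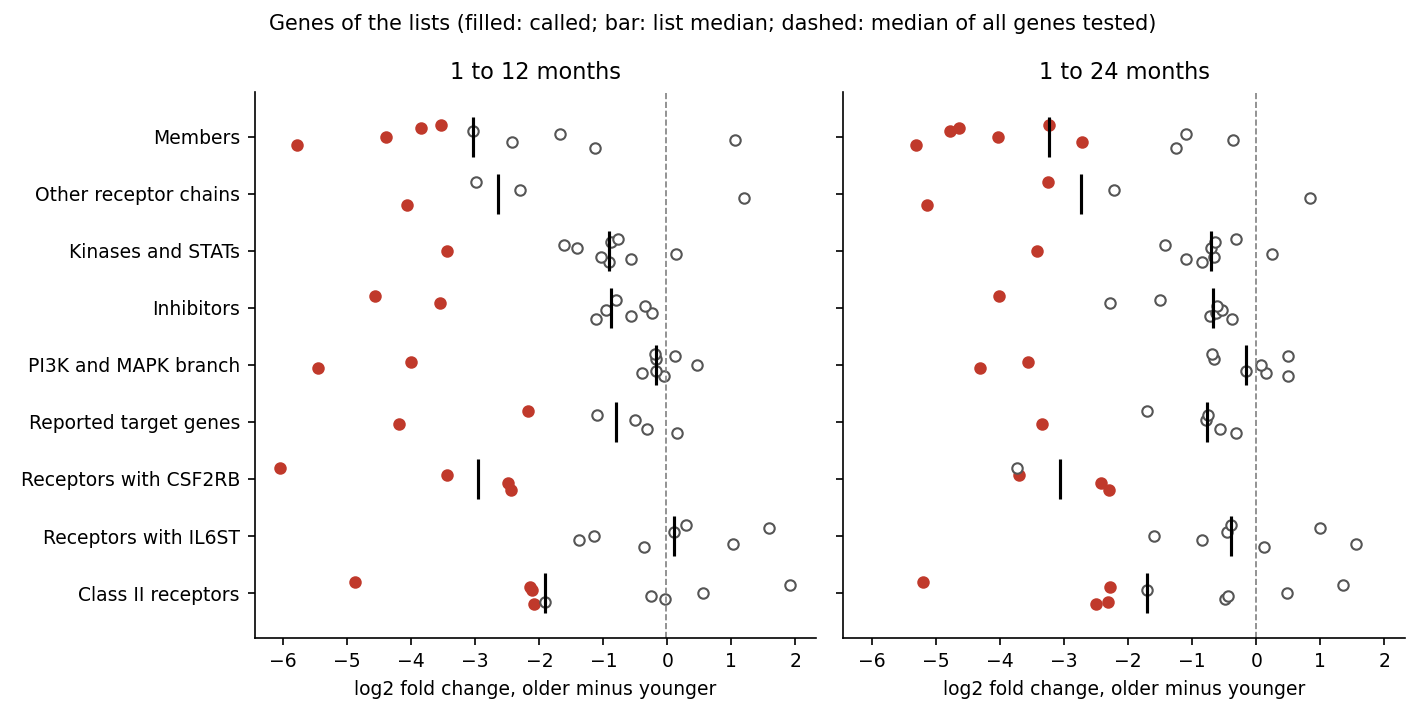
Fitted log2 fold change of each tested gene in the members, the pathway lists and 3 other receptor groups, from 1 to 12 and from 1 to 24 months, with called genes filled, bars for list medians and a dashed line for the median of all genes. The members and the CSF2RB group have the lowest medians (-3.04 and -2.96 at 12 months), and the IL6ST group lies near 0.

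Likeness was measured as the root mean square (RMS) difference between centred log2(CPM + 1) profiles over the 9 libraries, among 12866 named genes. The genes nearest to IL2RG were KIF21B (0.21), FERMT3 (0.23) and FSCN1 (0.23), where the RMS of the IL2RG profile itself was 1.94. IL21R was nearest to RAC2 (0.16), GPSM3 (0.28) and ARHGAP30 (0.28), and JAK3 to SH2D3C (0.24), SLC29A1 (0.30) and LPXN (0.31). Among the genes nearest to IL7R were SHCBP1 (0.29) and NCAPG (0.30), genes of dividing cells. IL4R was nearest to FLT3LG, PTK2B and FRMD8 (0.14 to 0.17). The profiles of IL4R, IL2RA, IL7 and IL15 had an RMS of 0.81, 0.90, 0.76 and 0.59, and the genes nearest to the last 3 were SH2B2, EHBP1L1 and ELFN2, ZNF850, HACD4 and LRRC17, and METTL14, FAM198B and FOPNL (0.16 to 0.23). For IL2RB no gene was closer than 0.75 (CYP4F2, ZFP26 and ACADM). Among the members IL2RG and IL21R had the smallest difference (0.30), followed by IL7 and IL15 (0.42) and IL2RG and JAK3 (0.48), while IL2RG and IL7R were 0.96 apart. The profiles of IL7 and IL15 were themselves small (RMS 0.76 and 0.59), against 1.94 and 1.63 for IL2RG and JAK3. The 0.42 is therefore not a closer likeness than the 0.48.

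Only IL2RG, IL2RA, IL7R and IL7 were counted on a single transcript. JAK3 had a known transcript with 41.8% to 70.1% of its counts and a newly assembled one with the rest, and no library lacked either. The main transcript of IL21R held 87.7% to 100% of the counts. The second was seen in the 3 libraries of group A. In replicate 1 of group B it had 2.35 counts, under the floor of 3 used for detection. Of 7 transcripts of IL4R a single one held 63.1% to 87.6% in each library. IL15 was counted mainly on a newly assembled transcript, with 61.8% to 100%. IL4R and IL21R are next to each other in the RefSeq annotation, as are IL2RA and IL15RA.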

How the data were processed

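The 9 libraries came from separate goats, 3 per age. The authors made strand-marked cDNA libraries (Illumina HiSeq), removed ribosomal reads with Bowtie2 2.2.8, aligned to the goat genome with TopHat2 2.1.1, assembled with Cufflinks and quantified with RSEM. What they deposited are expected counts, not normalized, for 52739 transcripts, 10053 of them new; neither FPKM nor lengths were used here. In most libraries under 1% of values above 0 were exactly whole as deposited, with no tolerance, but 2.22% were in 12-month-old replicate 2 and 25.1% in 24-month-old replicate 3, for a reason that was not tested. Gene numbers were matched to symbols in the RefSeq table of assembly ARS1.2 (99.92% of known transcripts), used for names and neighbours only; STAT5A, GZMB and CD163 were found under locus names by their product after the data were examined.

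Counts were summed per gene, rounded, filtered (filterByExpr), scaled by TMM and tested for each pair of ages on its 6 libraries with edgeR 4.0.16 (R 4.3.3) and Benjamini-Hochberg adjustment over all genes tested; the scripts were tested on simulated data. The FPKM threshold of the study could not be applied. CPM used TMM sizes over all 9 libraries. The 3-count floor covers counting error only, and the intervals of fitted fold changes include the spread between goats. Alternatives were other size factors, no filter, DESeq2 1.42.0, edgeR's exact test, all 9 libraries in one fit, the replicate number as a block, each library left out, transcripts not summed, and other reference genes for the ratios. Leaving out replicate 2 of the 1-month group for the ratios or together with a further choice, and leaving LCP1 out of the pan-leukocyte sum, were added after seeing the data. The members and lists were chosen with earlier results of these data known. Named were the 9 members, up to 4 genes per list in list order with those called against their list, and the 3 nearest genes in profile per member among named genes with a mean of at least 1 CPM. List genes outside that order were named after their values were seen. A few withheld genes are not reported here by name.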

Additional observations from a re-analysis of the deposited data

How the results depend on the processing

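The libraries came from separate goats, so the replicate numbers do not pair animals. Same-numbered libraries of groups A and B correlated at -0.09 to -0.10 in their deviations, those of groups A and C at -0.18 to 0.34, and those of groups B and C at -0.08 to -0.02. Deviations from a mean of 3 libraries are tied to each other, so these values cannot decide whether equal numbers share anything else. With the replicate block, 2 members were called from 1 to 12 months in place of 4 (5.25% of all genes lower in place of 9.52%), and 5 in place of 6 from 1 to 24 months (8.06% in place of 9.16%). The lost IL2RG and JAK3 had log2 fold changes of -3.85 (edgeR adjusted p = 0.0514) and -3.44 (0.0606), and the lost IL2RA -2.64 (0.0505). The exact test of edgeR and the Wald test of DESeq2 called 6 members each from 1 to 12 months, and the fit of all 9 libraries 5 (11.4%, 10.2% and 10.6% of all genes lower). The calls of IL7 among the 6 rest on its level in group A and add no support. From 1 to 12 months 7 members passed with the adjusted p alone and replicate 2 of group A left out, a choice made after seeing the data. The share of all genes passing under that rule is not given, so this count has no background to be read against. IL4R and IL15 were among these members with fold changes under the threshold. From 1 to 24 months 2 members (IL7R and JAK3) were called when transcripts were not summed. The lost members had log2 fold changes of about the same size as before. They were -4.04 for IL2RG (edgeR adjusted p = 0.0697), -5.23 for the main transcript of IL21R (0.0625), -2.75 for IL2RA (0.107) and -4.82 for IL7 (0.182). The share called over all transcripts is not given. Leaving out single libraries gave 0 to 5 members from 1 to 12 months and 1 to 6 from 1 to 24 months, and 0 to 8 and 0 to 7 genes of the pathway lists. In these comparisons calls over all genes fell without any library of group B or C, and those of lower genes rose without replicate 2 of group A. Against summed CD3 genes 6 members had higher ratios at 12 months, and against pan-leukocyte genes 1 at 12 and 1 at 24 months, or 4 and 3 without LCP1, left out after seeing the data.

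With single libraries left out, IL2RB ranged from -0.95 to 1.94 (log2 fold change) from 1 to 24 months, replicate 1 of group C apart. Without that library the fit gave -7.81, but both libraries left in group C had 0 counts of IL2RB. That value is therefore not a measured fold change and rests on group A alone. From 12 to 24 months IL2RG ranged from -0.12 to 0.67, IL2RA from -0.77 to 0.26, IL21R from -0.40 to 0.81, JAK3 from -0.20 to 0.86 and IL15 from -0.85 to 0.21. The cause was not tested. None of the other log2 fold changes of members changed sign under the alternatives run. Upper quartile scaling moved the median of all genes from 1 to 24 months from -0.01 to -0.11, and the same 6 members were called. Differences under 3 counts per library were not detectable.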
